A study of Mus musculus with 6 samples.

Results

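The kinesin, dynein and dynactin genes of AtT-20 cells were examined as the set of all array probes whose platform gene symbol starts with Kif and a digit, Klc, Dync, Dynl or Dctn. The rule used names alone and gave 127 of 45281 probes and 54 of 19057 named genes. They were divided into 10 mitotic kinesins, 15 transport kinesins with their light chains, 19 dynein and dynactin genes, and 10 other kinesins. AtT-20 is a mouse pituitary corticotrope tumour line, and the cells measured here carried rat PAM-1, an enzyme of the secretory granule membrane, as a stable doxycycline-inducible transgene. For 48 h, 3 clones (14, 6_1 and 6_2) grew in doxycycline medium and in control medium, and the RNA of each culture was read on 1 Illumina MouseWG-6 bead array. The doxycycline group held 3 arrays, 1 per clone, and the control group 3 arrays of the same clones, which carry the transgene too. For doxycycline the labels state 4 µg/ml in the treatment protocol but 4 mg/ml for the samples. How clones 6_1 and 6_2 are related is not stated, and a clone had no repeat culture, so p-values measure only the spread between these cultures. Cells with doxycycline but no transgene were not analysed here, so drug and induced PAM-1 cannot be told apart.

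Kinesins are ATP-driven motors that mostly walk towards the plus ends of microtubules, and cytoplasmic dynein walks the other way with dynactin as its activator. In endocrine cells these motors carry secretory granules, mitochondria and endosomes. A separate group of kinesins builds and moves the mitotic spindle and serves cytokinesis.

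Between 16196 and 17149 probes per array were above background at a detection p under 0.01, and each doxycycline array had fewer of them than the control array of its clone. Apart from the rest lay the control array of clone 6_1, at 56.5 on the first principal component against a range of -33.7 to 18.7 for the 5 other arrays. The corticotrope markers Pomc, Tbx19, Neurod1 and Crhr1 were above background on 6 arrays and Pcsk1 on 5, whereas Pitx1 and Avpr1b were so on 0. Of other cell types, Gh, Prl, Tshb, Lhb and Fshb of the pituitary, Col1a1, Col1a2 and Dcn of fibroblasts, and Ptprc and Hba-a1 of blood cells were above background on 0 arrays, and Cga on 1.

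Of the 127 motor probes 79 were above background on at least 3 arrays and were tested, and they stood for 46 genes. On all 6 arrays 73 of the 79 were above background. The 8 genes without a tested probe were the mitotic kinesin Kif20a, the dynein light chain Dynlt1b and the other kinesins Kif2b, Kif7, Kif12, Kif21b, Kif26a and Kif27. Levels below are log2 values of background-corrected, quantile-normalised intensities, a difference is doxycycline minus control on that scale, and a gene with several tested probes is given by its brightest one. Values are listed in the order of clones 14, 6_1 and 6_2.

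No motor probe passed the test between media: 0 of 79 had an adjusted p under 0.05 (limma with clone as a block, Benjamini-Hochberg over 16902 tested probes), where 0.314% of all tested probes did. The lowest adjusted p among the motors was 0.0995, for Kif9. At an unadjusted p under 0.05 there were 24 of 79 motor probes, 21 lower with doxycycline and 3 higher. Of all tested probes 22.3% reached this p, 10.6% lower and 11.6% higher. The 3 doxycycline arrays lay below all 3 control arrays for 22 of 79 motor probes, or 27.8%, against 12.5% of all tested probes. They lay above them for 5 motor probes, or 6.33%, against 12.1% of all. By gene, 29 of 46 motor genes were lower with a median difference of -0.20, and 20 of 46 were lower in each clone. Of all 9196 tested genes 4599 were lower, with a median of -0.00023, and 24.4% were lower in each clone. Without clone 14 limma called 3 of 79 motor probes, or 3.8% (of Kif18a, Kif9 and Dync2h1, all lower), beside 717 or 4.24% of all 16902 tested probes. Without clone 6_2 it called 2, or 2.53% (of Kif9 and Dync2h1, both lower), beside 400 or 2.37% of all. In both fits the prior degrees of freedom were infinite, and the motor shares were near those of all tested probes. Without clone 6_1 it called 0 motor probes and 0.461% of all.

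Motor genes often had their highest value on the control array of clone 6_1. It was the highest of the 6 arrays for 23 of 46 motor genes, or 50%, against 29.1% of all tested genes, and the lowest for 12, or 26.1%, against 33.1%. By class it was the highest for 7 of 9 mitotic, 7 of 15 transport and 3 of 4 other kinesins, and the lowest for 0, 5 and 0. For dynein and dynactin it was the highest for 6 of 18, or 33.3%, and the lowest for 7, or 38.9%, nearer the shares of all tested genes. The part of this array in the differences between media was not tested, and values without clone 6_1 are given below for that reason. Of the 29 lower motor genes 11 stayed below 0 without this clone with a difference over 1.5 times smaller, and 4 lay above 0. Without it 28 of 46 motor genes were lower, and 16 of 79 motor probes had an unadjusted p under 0.05, where 22.7% of all tested probes did. Of the 17 higher motor genes Dctn1, Dctn3, Dctn5, Dctn6, Dynll1, Dynll2, Dynlrb1 and Kif5b were over 1.5 times nearer 0 without clone 6_1. Kif3a, Kif17 and Kif18b fell below 0, while Dync1li2, Kif13a, Kif13b, Kif15, Kif22 and Kif5c lay farther above it. How many of all tested genes moved in these ways was not counted.

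**Figure D1:**
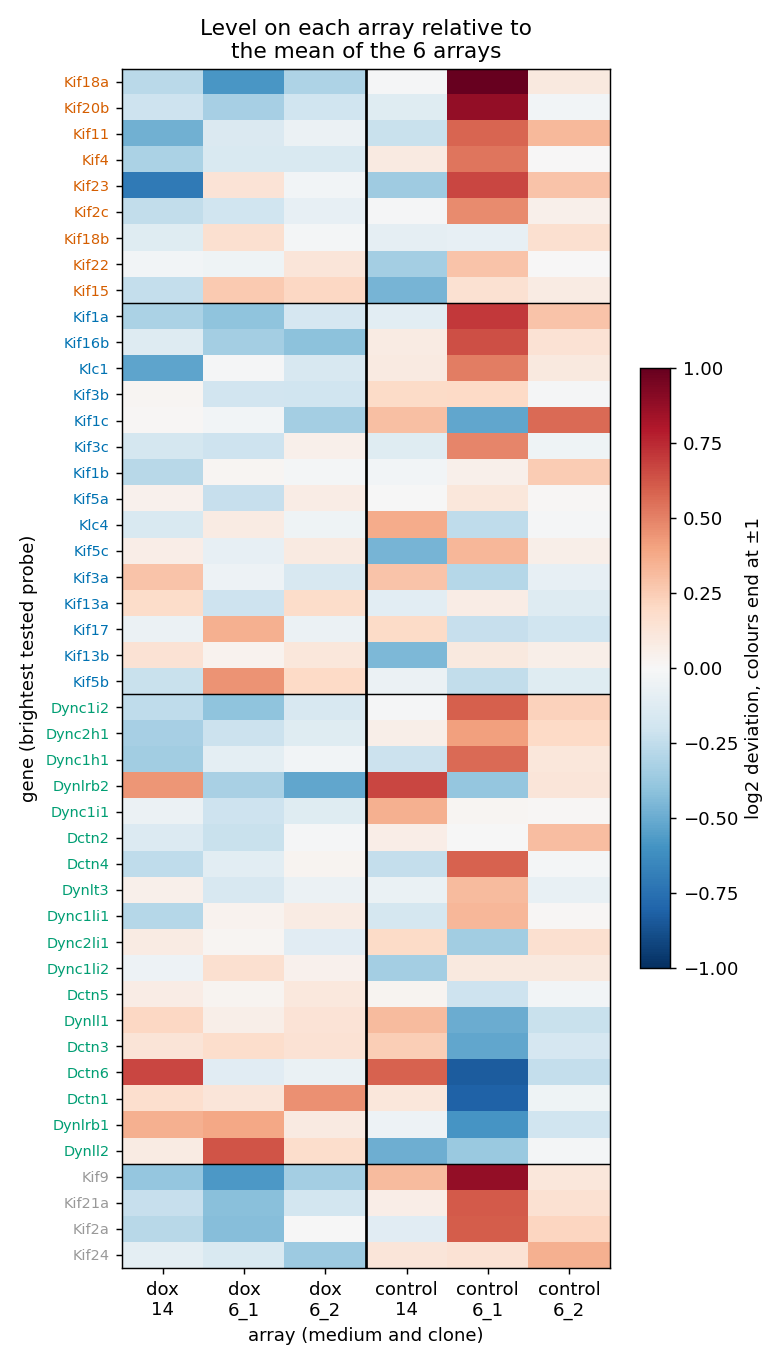
Level of each of the 46 measured motor genes on each array, as log2 deviation from the mean of the 6 arrays, with the 3 doxycycline arrays left and the 3 control arrays right. Gene names are coloured by class (orange mitotic kinesins, blue transport kinesins, green dynein and dynactin, grey other kinesins), and the control array of clone 6_1 holds the highest value of 23 genes and the lowest of 12.

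Of the mitotic kinesins 9 of 10 genes were measured. With doxycycline 6 of the 9 were lower, and these 6 were lower in each clone, against 24.4% of all tested genes. The median difference of the class was -0.24, -0.67 and -0.17 in clones 14, 6_1 and 6_2. Over the clones it was -0.40, and -0.18 without clone 6_1. None of the 15 tested probes passed (limma), and 4 had an unadjusted p under 0.05, all lower. Among all tested probes 10.6% were lower and 11.6% higher at this p. In whole-culture RNA, fewer dividing cells and less RNA per dividing cell cannot be told apart. The only motor of this class without a measured level was Kif20a, a kinesin of the central spindle.

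Kif18a, which dampens chromosome movement at the ends of kinetochore microtubules, read 9.58, 9.26 and 9.53 in doxycycline medium, against 9.83, 10.93 and 9.94 in control medium. All doxycycline values lay below all control values, and the control array of clone 6_1 was far above the rest. The difference was -0.77 (SE 0.27, limma adjusted p = 0.157). By clone it was -0.25, -1.67 and -0.41.

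Kif11, the kinesin that pushes spindle poles apart, read 8.35, 8.69 and 8.78 with doxycycline, against 8.61, 9.41 and 9.16 in control medium. The groups overlapped, although each clone was lower with doxycycline. Its difference was -0.45 (SE 0.18, 95% interval -0.85 to -0.05, limma adjusted p = 0.185). Kif23, a subunit of the centralspindlin complex of cytokinesis, read 10.72, 11.57 and 11.40 with doxycycline, against 11.08, 12.09 and 11.71 in control medium, a difference of -0.40 (SE 0.17, limma adjusted p = 0.209). Both arrays of clone 14 lay below the 4 other arrays, so the groups overlapped here too. By clone the Kif23 difference was -0.35, -0.53 and -0.31, and its other tested probes read -0.23 and 0.10.

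Kif4, a chromosome-arm motor that also acts at the spindle midzone, read 10.26, 10.43 and 10.43 with doxycycline, against 10.67, 11.11 and 10.58 in control medium. The groups did not overlap, and the difference was -0.42 (SE 0.18, limma adjusted p = 0.216). Its other probes read -0.36 (SE 0.28) and -0.46 (SE 0.22), and by clone these were 0.13, -1.33 and 0.12 for the first and -0.11, -1.10 and -0.15 for the second, so that clone 6_1 carried most of both. Kif20b, active in the last step of cytokinesis, differed by -0.49 (SE 0.24), or -0.08, -1.21 and -0.17 in the clones and -0.13 without clone 6_1. The microtubule depolymerase Kif2c differed by -0.35 (SE 0.18), and by -0.18 without that clone. All doxycycline arrays were below all control arrays for both genes. The chromosome and spindle motors Kif15 and Kif22 and the plus-end regulator Kif18b read close to 0. Kif15 differed by 0.15 (SE 0.16, 95% interval -0.22 to 0.53, limma adjusted p = 0.592) and Kif22 by 0.04 (SE 0.19). Kif18b differed by 0.01 (SE 0.17) and was on the other side of 0, at -0.04, with median scaling of the arrays.

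Mitotic genes are known to share promoter elements, among them the cell cycle homology region TTTGAA, bound by the MuvB complex, and the CCAAT box, bound by NF-Y. Both were searched as exact letters on both strands (TTTGAA or TTCAAA, and CCAAT or ATTGG) in RefSeq windows of GRCm38.p6 that run from 250 bases before to 50 bases after an annotated start. Windows were found for 43 of the 54 motor genes. TTTGAA was in 8 of 9 mitotic kinesin windows, against 1 of 14 of the transport kinesins, 1 of 16 of dynein and dynactin and 1 of 11 of the other kinesins. Of all 32851 windows 17.9% held it. CCAAT was in 5 of the 9 mitotic windows and in 37.4% of all, and both elements together were in the same 5 and in 7.0% of all. The elements overlapped in 47 of all windows. A match describes letters and is not a shown binding site. Of the 8 genes with TTTGAA, Kif11, Kif23, Kif4, Kif20b and Kif2c were lower with doxycycline in each clone, and Kif15, Kif22 and Kif18b were not. Kif18a, with the most negative difference of the class, had neither element. The windows of the 4 mitotic genes described first are printed to show where the elements lie, with that of the light chain gene Klc1, a transport gene described below, for contrast. Capitals mark both elements on either strand.
Kif11 (chr19:37376132-37376431, plus strand): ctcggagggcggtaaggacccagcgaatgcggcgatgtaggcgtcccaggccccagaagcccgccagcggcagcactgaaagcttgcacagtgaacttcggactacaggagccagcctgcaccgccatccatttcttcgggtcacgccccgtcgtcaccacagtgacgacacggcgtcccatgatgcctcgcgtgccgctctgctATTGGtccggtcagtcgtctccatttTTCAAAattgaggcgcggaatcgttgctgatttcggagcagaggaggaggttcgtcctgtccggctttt
Kif23 (chr9:61946750-61947049, minus strand): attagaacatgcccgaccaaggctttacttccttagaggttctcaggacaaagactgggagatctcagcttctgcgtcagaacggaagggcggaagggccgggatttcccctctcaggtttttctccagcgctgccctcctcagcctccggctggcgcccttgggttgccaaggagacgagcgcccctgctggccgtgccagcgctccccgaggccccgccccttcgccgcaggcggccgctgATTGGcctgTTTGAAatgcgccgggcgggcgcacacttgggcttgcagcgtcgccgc
Kif4 (chrX:100625815-100626114, plus strand): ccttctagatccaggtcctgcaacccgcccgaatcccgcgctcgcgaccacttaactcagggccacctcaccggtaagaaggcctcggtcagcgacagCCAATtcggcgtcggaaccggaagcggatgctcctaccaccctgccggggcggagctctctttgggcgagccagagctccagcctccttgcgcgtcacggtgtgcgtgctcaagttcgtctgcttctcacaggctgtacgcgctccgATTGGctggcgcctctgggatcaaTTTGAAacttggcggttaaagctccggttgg
Kif18a (chr2:109280488-109280787, plus strand): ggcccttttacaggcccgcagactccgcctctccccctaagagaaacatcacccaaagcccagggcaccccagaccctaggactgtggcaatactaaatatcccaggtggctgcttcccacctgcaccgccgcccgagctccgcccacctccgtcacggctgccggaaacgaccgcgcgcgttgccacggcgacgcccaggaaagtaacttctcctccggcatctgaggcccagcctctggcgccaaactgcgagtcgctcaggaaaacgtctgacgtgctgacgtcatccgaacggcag
Klc1 (chr12:111758618-111758917, plus strand): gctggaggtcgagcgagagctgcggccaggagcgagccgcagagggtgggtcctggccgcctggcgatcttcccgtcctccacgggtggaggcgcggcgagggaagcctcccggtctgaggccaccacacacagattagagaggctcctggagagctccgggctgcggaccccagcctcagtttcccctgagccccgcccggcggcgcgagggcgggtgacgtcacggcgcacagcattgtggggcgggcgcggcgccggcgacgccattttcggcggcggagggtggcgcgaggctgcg
In Kif11 the TTTGAA element lies 19 bases and the CCAAT box 45 bases before the annotated start. In Kif23 the CCAAT box lies 7 bases before the start and TTTGAA 2 bases after it. Kif4 has CCAAT boxes 152 and 5 bases before the start and TTTGAA 19 bases after it.

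All 15 transport kinesin genes were measured, and they were divided: 9 were lower with doxycycline and 6 higher, with a class median of -0.08, or -0.05 without clone 6_1. Medians were -0.18, -0.28 and -0.03 in clones 14, 6_1 and 6_2. Lower in each clone were 5 genes, or 33.3%, and higher in each 0, against 24.4% and 24.9% of all tested genes. Among 30 tested probes 8 had an unadjusted p under 0.05, all lower, and 0 passed (limma). Among all tested probes 10.6% were lower and 11.6% higher at this p.

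Kif1a, a motor of dense-core vesicles in neurons, read 13.52, 13.44 and 13.67 with doxycycline, against 13.74, 14.55 and 14.13 in control medium. No doxycycline array reached the lowest control array. The difference was -0.59 (SE 0.21, 95% interval -1.06 to -0.12, limma adjusted p = 0.159), and the dimmer Kif1a probe read -0.19 (SE 0.17). By clone the brighter probe differed by -0.21, -1.11 and -0.46.

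Kif16b, which moves early endosomes, read 7.57, 7.37 and 7.30 with doxycycline, against 7.79, 8.35 and 7.85 in control medium, again with no overlap, and differed by -0.58 (SE 0.19, limma adjusted p = 0.146), or -0.38 without clone 6_1. Klc1, a light chain that links conventional kinesin to its cargo, read 11.05, 11.57 and 11.42 with doxycycline, against 11.67, 12.09 and 11.68 in control medium. Its highest doxycycline value stayed below its lowest control value. Klc1 differed by -0.47 (SE 0.17, limma adjusted p = 0.17) on this brightest probe. By clone the values were -0.62, -0.52 and -0.26, so that clone 6_1 did not stand out there. All 5 Klc1 probes were lower, from -0.61 to -0.34. Clone 6_1 did stand out on the dimmer probes at -0.61 and -0.56, which were at -0.37 and -0.34 without it. By clone the probe at -0.61 read -0.47, -1.07 and -0.28. On the other dimmer probes clone 6_1 did not have the most negative value. The 5 probes share a gene and are not replicates of each other.

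The heavy chains that pair with Klc1 read otherwise, though a difference in response between the genes was not tested. Kif5c read 12.46, 12.31 and 12.48 with doxycycline, against 11.93, 12.72 and 12.45 in control medium, a difference of 0.05 (SE 0.21) made up of 0.54, -0.41 and 0.03 in the clones. Kif5a differed by -0.08 (SE 0.17). The widely expressed heavy chain Kif5b, on a dim probe that was above background on 5 arrays, read 6.10, 6.77 and 6.52 with doxycycline, against 6.27, 6.08 and 6.20 in control medium, a difference of 0.28 (SE 0.20, limma adjusted p = 0.415). Without clone 6_1 it was 0.08. The light chain Klc4 differed by -0.08 (SE 0.20).

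Kif3a and Kif3b form the motor of anterograde intraflagellar transport. Kif3b differed by -0.25 (SE 0.17, limma adjusted p = 0.387) and was lower in each clone on this probe, while its dimmer probe read -0.03 (SE 0.19). Kif3a depended on the probe. Its brighter probe read 11.19, 10.85 and 10.74 with doxycycline, against 11.19, 10.62 and 10.82 in control medium, a difference of 0.05 (SE 0.17) with the groups overlapping. Its dimmer probe read 9.26, 9.38 and 9.48 with doxycycline, against 9.91, 10.18 and 9.85 in control medium, with no overlap and a difference of -0.61 (SE 0.17, limma adjusted p = 0.119). Both probes are annotated to the same transcript record. Kif1b, which carries mitochondria and synaptic vesicle precursors, had 7 tested probes, all lower, from -0.41 to -0.09, but 4 of them were above 0 without clone 6_1. The remaining genes were Kif1c, a vesicle motor, Kif3c, a partner of Kif3a, the endosome and membrane cargo motors Kif13a and Kif13b, and Kif17, a motor of dendrites and cilia. In this order they differed by -0.24, -0.22, 0.11, 0.19 and 0.16.

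**Figure D2:**
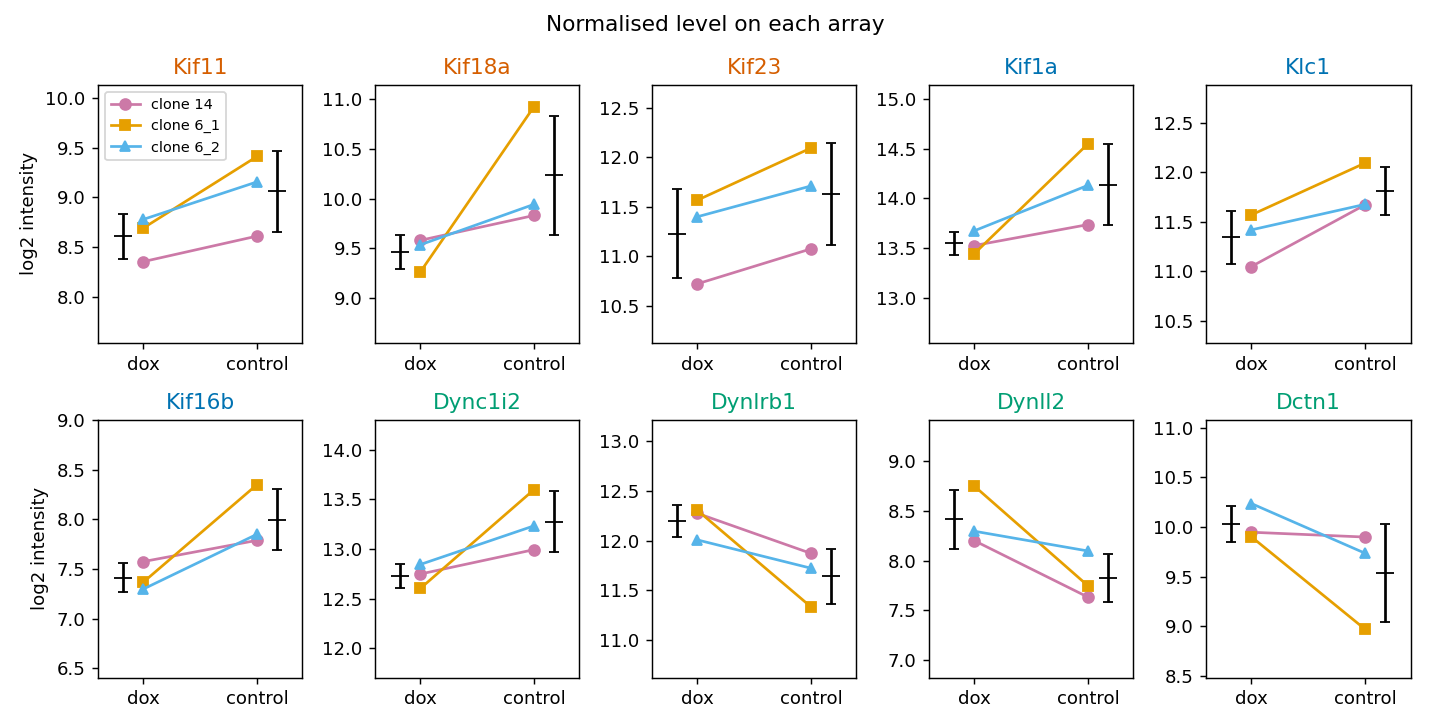
Normalised log2 intensity of 10 motor genes on each array, doxycycline left and control right in each panel. Lines join the arrays of a clone, and black bars show mean ± SD of the 3 arrays of a medium. Kif11, Kif18a, Kif23, Kif1a, Klc1, Kif16b and Dync1i2 are lower with doxycycline in each clone, and Dynlrb1, Dynll2 and Dctn1 are higher in each.

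Dynein and dynactin genes pointed both ways. Of 19 genes 18 were measured, 10 lower and 8 higher with doxycycline. Lower in each clone were 5, and higher in each 5, or 27.8% each way, near the 24.4% and 24.9% of all tested genes. The class median was -0.06 over the clones, 0.04 without clone 6_1, and -0.11, 0.06 and 0.03 in clones 14, 6_1 and 6_2. The heavy, intermediate and light intermediate chains of cytoplasmic dynein were lower in 4 of 5 cases with a median of -0.26. Of the light chains 3 of 5 were higher, the median being 0.26, and of the dynactin genes 4 of 6, the median being 0.22. Without clone 6_1 these medians were -0.14, 0.12 and 0.10. Differences between these subunit groups were not tested. Of 29 tested probes 5 were lower and 3 higher at an unadjusted p under 0.05, and 0 passed (limma). Among all tested probes 10.6% were lower and 11.6% higher at this p.

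Dync1h1 encodes the heavy chain that holds the motor domain. It read 11.16, 11.42 and 11.49 with doxycycline, against 11.30, 12.08 and 11.63 in control medium, and the groups overlapped. The difference was -0.31 (SE 0.18, limma adjusted p = 0.328), and -0.14 without clone 6_1. Dync1i2, an intermediate chain that binds dynactin, read 12.75, 12.60 and 12.84 with doxycycline, against 12.99, 13.60 and 13.23 in control medium, with no overlap, and differed by -0.54 (SE 0.20, limma adjusted p = 0.166), or -0.32 without clone 6_1. A further Dync1i2 probe for the same transcript record read -0.45 (SE 0.18). A dimmer probe for a separate cDNA record ran the other way, at 7.56, 7.57 and 7.21 with doxycycline, against 7.15, 7.15 and 6.99 in control medium. That probe differed by 0.35 (SE 0.17), also without overlap. Of the other chains Dync1i1 differed by -0.26 (SE 0.17) and Dync1li1 by -0.11 (SE 0.17), and Dync1li2 by 0.10 (SE 0.17), or -0.02 with median scaling.

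Dync2h1, the heavy chain of the dynein of intraflagellar transport, was lower on all 4 tested probes. The brightest read 9.77, 9.89 and 9.98 with doxycycline, against 10.16, 10.51 and 10.30 in control medium, and its doxycycline arrays lay below all control arrays. Its difference was -0.44 (SE 0.17, limma adjusted p = 0.18), and the other probes read -0.37, -0.58 and -0.98. The probe at -0.37 was dim, above background on 3 control arrays and 1 doxycycline array. Its control arrays alone were enough to bring it into the test, which favours a lower reading. The probe at -0.98 read 6.90, 6.83 and 7.54 with doxycycline, against 7.78, 8.67 and 7.76 in control medium (SE 0.27, limma adjusted p = 0.117). It was called without clone 14 at -1.03 (limma adjusted p = 0.0179) and without clone 6_2 at -1.36 (limma adjusted p = 0.00182), fits that called 4.24% and 2.37% of all tested probes. Without clone 6_1 it was at -0.55 and was not called. The light intermediate chain of the same motor, Dync2li1, differed by -0.0033 (SE 0.19), and by 0.0035 with cyclic loess.

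Among light chains, Dynlrb1, of the roadblock type, read 12.28, 12.31 and 12.01 with doxycycline, against 11.87, 11.33 and 11.72 in control medium. Every doxycycline array was above every control array. The difference was 0.55 (SE 0.19, 95% interval 0.12 to 0.99, limma adjusted p = 0.157), and 0.34 without clone 6_1. Dynll2, a light chain that also acts as a hub for other protein pairs, read 8.20, 8.75 and 8.30 with doxycycline, against 7.63, 7.75 and 8.10 in control medium, with no overlap either, and differed by 0.59 (SE 0.20, limma adjusted p = 0.146), or 0.38 without clone 6_1. Its relative Dynll1 read 12.64, 12.49 and 12.57 with doxycycline, against 12.75, 11.94 and 12.22 in control medium, which overlapped, and its difference of 0.26 (SE 0.19) was made up of -0.11, 0.55 and 0.35 in the clones. Dynlrb2 and Dynlt3 differed by -0.27 (SE 0.19) and -0.11 (SE 0.18).

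Dctn1 encodes the largest dynactin subunit, which binds microtubules and dynein. It read 9.95, 9.90 and 10.24 with doxycycline, against 9.90, 8.97 and 9.74 in control medium, where the lowest doxycycline and highest control values nearly met. The difference was 0.49 (SE 0.20, limma adjusted p = 0.202), and by clone it was 0.05, 0.93 and 0.50. Dctn2, the subunit dynamitin, read 13.06, 12.97 and 13.18 with doxycycline, against 13.26, 13.19 and 13.51 in control medium. Its difference of -0.25 (SE 0.16) had the opposite sign to that of Dctn1 and was -0.21, -0.22 and -0.33 in the clones. The small subunits Dctn3, Dctn5 and Dctn6 differed by 0.30 (SE 0.20), 0.14 (SE 0.17) and 0.32 (SE 0.19), or 0.10, 0.09 and 0.13 without clone 6_1, and Dctn4 by -0.22 (SE 0.20).

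Of 10 other kinesins 4 were measured, and these 4 were lower in each clone, as were 24.4% of all tested genes. Medians of the 4 were -0.26, -1.03 and -0.39 in clones 14, 6_1 and 6_2. Their median over the clones was -0.51, and -0.39 without clone 6_1. Kif9, a kinesin of motile cilia and flagella, read 6.55, 6.37 and 6.60 with doxycycline, against 7.25, 7.82 and 7.05 in control medium. The groups were well apart, and the difference was -0.87 (SE 0.22, 95% interval -1.36 to -0.38, limma adjusted p = 0.0995). Its level was near background, as the lowest values above background were 5.97 to 6.22 on the 6 arrays, and the offset of the normalisation shrinks differences there. Without clone 14 it was called at -0.95 (limma adjusted p = 0.0334), and without clone 6_2 at -1.08 (limma adjusted p = 0.0239). These fits called 4.24% and 2.37% of all tested probes. Without clone 6_1 Kif9 was at -0.58 (limma adjusted p = 0.0900) and was not called.

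Kif2a, a depolymerase of microtubule ends, differed by -0.47 (SE 0.21, limma adjusted p = 0.228) on its bright probe, made up of -0.16, -1.03 and -0.22 in the clones, and by -0.19 without clone 6_1. A dim Kif2a probe averaged 5.96 with doxycycline and 6.61 in control medium. All 3 control arrays showed it above background and 0 doxycycline arrays did (not well above background there), so only a bound is given: it was at least 1.33-fold lower with doxycycline (limma adjusted p = 0.0995). This probe entered the test through the control arrays alone, which fixes its direction, so its p and bound are a description. The bound sets the control mean against the mean of, per doxycycline array, the higher of the lowest value above background and the probe's own. Kif21a, which restrains microtubule growth, read 10.22, 10.04 and 10.27 with doxycycline, against 10.52, 11.06 and 10.60 in control medium, and differed by -0.55 (SE 0.20), or -0.31 without clone 6_1. Kif24, a kinesin of centrioles, differed by -0.41 (SE 0.18).

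**Figure D3:**
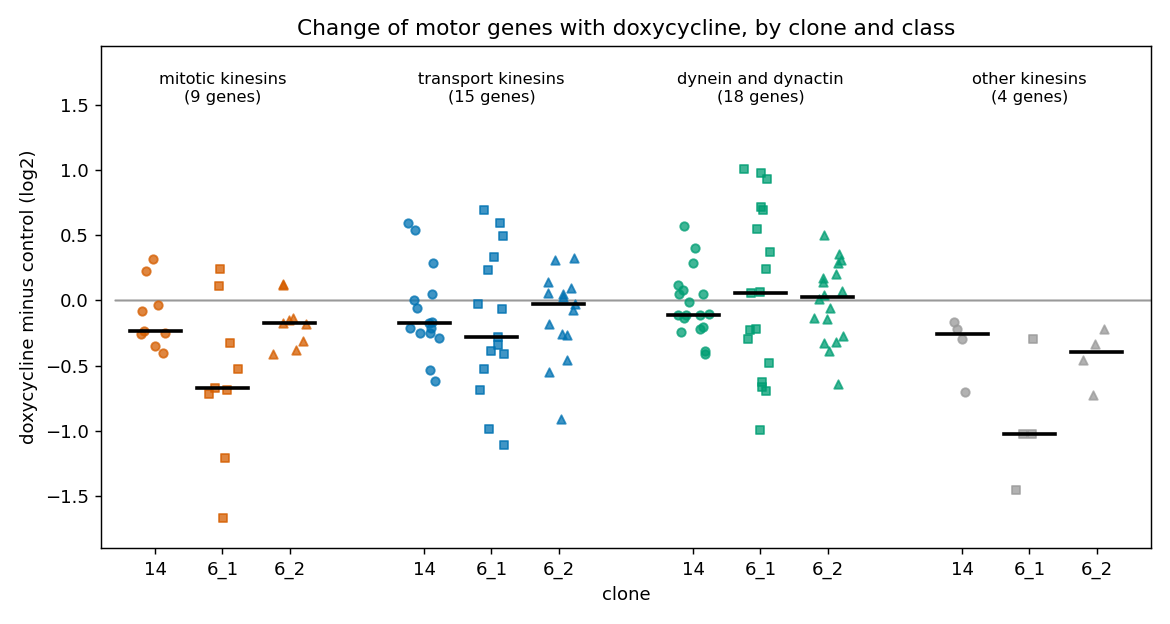
Difference between doxycycline and control medium (log2) of every measured motor gene in each clone, by class, with 1 point per gene and black bars at the class median. In clone 6_1 the medians are -0.67 for mitotic kinesins, -0.28 for transport kinesins, 0.06 for dynein and dynactin and -1.03 for other kinesins.

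**Figure D4:**
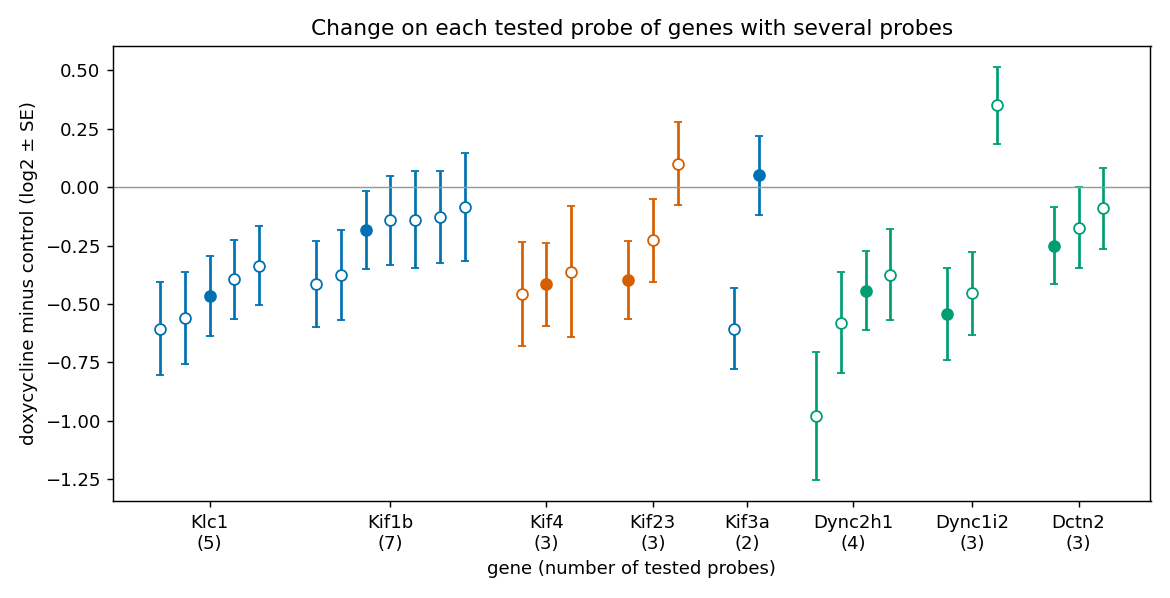
Difference between doxycycline and control medium (log2, bars are the standard error of the limma fit) for each tested probe of 8 genes with several probes, with the brightest probe filled. All 5 Klc1, 7 Kif1b, 3 Kif4, 4 Dync2h1 and 3 Dctn2 probes are below 0, and Kif3a, Kif23 and Dync1i2 have probes on both sides of it.

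Clones were compared next, averaged over both media. No motor probe passed between any clones (limma, Benjamini-Hochberg), where 0.136% of all tested probes passed for clone 14 minus 6_1, 0.142% for 14 minus 6_2 and 0% for 6_1 minus 6_2. At an unadjusted p under 0.05 there were 10, 7 and 1 of 79 motor probes, or 12.7%, 8.86% and 1.27%, beside 15.6%, 10.7% and 2.67% of all tested probes. With estimated array weights 8 of 79 motor probes passed for clone 14 minus 6_2, or 10.1%, beside 2018 or 11.9% of all tested probes. These weights were the same for both arrays of a clone, at 1.35, 0.306 and 2.43 for clones 14, 6_1 and 6_2. They thus weighted whole clones and did not grade single arrays. With median scaling 1 motor probe, of Dctn6, passed for clone 14 minus 6_1, or 1.27%, beside 206 or 1.22% of all.

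Mitotic kinesins read lower in clone 14. On their brightest probes all 9 measured genes were lower there than in clone 6_1 and than in clone 6_2, while 38.7% of all tested genes were. These comparisons share the arrays of clone 14. Medians of the 9 were -0.39 for clone 14 minus 6_1 and -0.17 for 14 minus 6_2, against 0.02 and -0.0018 for all tested genes. The dimmer Kif18b probes read 0.22 and 0.05 for clone 14 minus 6_1, and 0.14 and -0.03 for 14 minus 6_2. By medium, on the brightest probes of the 9 genes, clone 14 minus 6_1 had a median of -0.16 with doxycycline, with 6 of 9 lower. In control medium it was -0.62, with 9 of 9 lower. For clone 14 minus 6_2 it was -0.16 with doxycycline and -0.24 in control medium, with 8 of 9 lower in each. On the brightest probe, both clone 14 arrays lay below the 4 others for Kif11, Kif15, Kif18b and Kif23, 4 of 9, where 11.6% of all tested genes did so. For Kif18b the groups nearly met, at 10.40 in clone 14 and 10.41 in clone 6_1, both in control medium. On a dimmer Kif18b probe both clone 14 arrays, at 8.64 and 8.67, lay above the 4 others, and on another they lay among them. A dimmer Kif23 probe did not set clone 14 apart either.

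Kif23 had the most negative clone difference of the class. On doxycycline and control arrays in turn it read 10.72 and 11.08 in clone 14, 11.57 and 12.09 in clone 6_1 and 11.40 and 11.71 in clone 6_2. On this probe the difference was -0.93 (SE 0.20, limma adjusted p = 0.114) for clone 14 minus 6_1 and -0.65 (SE 0.20, limma adjusted p = 0.289) for 14 minus 6_2. The dimmer Kif23 probes read -0.62 and -0.18 for clone 14 minus 6_1, and -0.45 and -0.33 for 14 minus 6_2. Kif15 read 8.82 and 8.59 in clone 14, 9.31 and 9.20 in clone 6_1 and 9.26 and 9.13 in clone 6_2. For Kif15 the 2 arrays of a clone lay closer together than clone 14 lay to either other clone.

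As whole classes, transport kinesins and dynein parts were not one-sided in this way. Transport kinesins were lower in clone 14 in 8 of 15 cases against either other clone, with medians of -0.18 and -0.03. Dynein and dynactin genes were lower in 8 and 9 of 18, with medians of 0.11 and -0.03. Both clone 14 arrays lay below the 4 others for 4 of these 18, against 11.6% of all tested genes. The 4 were Dctn4 and the cytoplasmic dynein chains Dync1h1, Dync1li1 and Dync1li2. Both clone 14 arrays lay above the 4 others for 3 of the 18 (Dctn6, Dynll1 and Dynlrb2), against 11.8% of all tested genes. The dimmer tested probes of Dctn4 and Dynll1 did not set clone 14 apart. Dctn6 had the most positive difference over clone 6_1. On doxycycline and control arrays in turn it read 10.44 and 10.36 in clone 14, 9.66 and 8.94 in clone 6_1 and 9.70 and 9.53 in clone 6_2, and clone 14 minus 6_1 was 1.10 (SE 0.23, limma adjusted p = 0.108). Both clone 14 arrays were above the 4 others. Dynlrb2 was likewise apart, at 7.83 and 8.05 in clone 14, 7.06 and 7.00 in clone 6_1 and 6.87 and 7.51 in clone 6_2, and clone 14 minus 6_1 was 0.91 (SE 0.23, limma adjusted p = 0.14). One of the dimmer Kif1b probes read 9.30 and 9.24 in clone 14, 10.02 and 10.59 in clone 6_1 and 10.05 and 9.98 in clone 6_2, with -1.03 (SE 0.23, limma adjusted p = 0.117) for clone 14 minus 6_1.

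Motor genes differ widely in genomic span, introns included, from 3.88 kb for Dynll1 to 302.4 kb for Dync1i1 in GRCm38.p6. Dynein light chain genes had a median span of 10.9 kb and dynactin genes 17.1 kb, against 45.5 kb for mitotic kinesins and 69.2 kb for the other kinesins. Across the 46 motor genes the difference between media was lower the longer the gene (Pearson -0.411 on log span, Spearman -0.468), and across all 9183 tested genes with a span it was too (Pearson -0.431, Spearman -0.44). These are descriptions across genes that share the same 6 arrays. Among genes under 20 kb, 4 of 11 motor genes were lower, with a median of 0.04, against 31.8% and 0.15 for all tested genes. From 20 to 60 kb, 14 of 20 were lower with a median of -0.22, against 60.7% and -0.08. Over 60 kb, 11 of 15 were lower with a median of -0.41, against 72.6% and -0.19. In each range the motor median was below that of all tested genes, and the part of span in the differences was not tested.

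**Figure D5:**
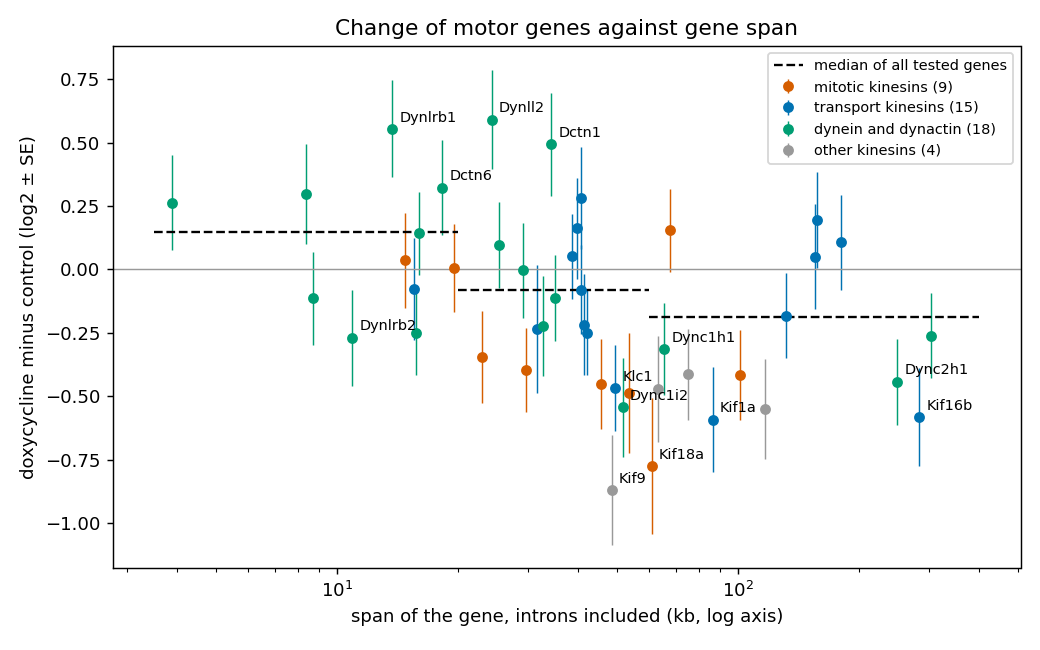
Difference between doxycycline and control medium (log2, bars are the standard error of the limma fit) of the 46 measured motor genes against genomic span on a log axis, coloured by class. Dashed lines are the medians of all tested genes under 20 kb, from 20 to 60 kb and over 60 kb, at 0.15, -0.08 and -0.19.

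Genes that work with the motors were taken from lists of known function, and those named are among the ones with an unadjusted p under 0.05. Of 29 spindle partners 22 were measured, and 0 of their 37 probes passed (limma), with 4 higher and 8 lower at an unadjusted p under 0.05. Among all tested probes 11.6% were higher and 10.6% lower at this p. The median of the 22 was -0.02, with 13 lower. Lower in each clone were 7, and higher in each 7, or 31.8% each way, against 24.4% and 24.9% of all tested genes. The cytokinesis exchange factor Ect2 differed by -0.68 (SE 0.25), the kinetochore gene Spc25 by -0.40 (SE 0.17) and the checkpoint kinase Ttk by -0.48 (SE 0.21). By clone these were -0.38, -1.47 and -0.17 for Ect2, -0.26, -0.43 and -0.52 for Spc25, and -0.42, -0.99 and -0.02 for Ttk. Clone 6_1 thus carried most of Ect2 and Ttk. Ttk was also dim, at 5.63 and 5.89 on the doxycycline arrays of clones 14 and 6_1, where the lowest values above background were 6.15 and 6.22. On the other side the anaphase activator Cdc20 differed by 0.44 (SE 0.17) and the kinetochore gene Spc24 by 0.43 (SE 0.18). By clone these were 0.47, 0.25 and 0.61, and 0.12, 0.75 and 0.43. Clone 14 was lower than clone 6_1 for 14 of the 22, against 47.6% of all tested genes, and lower than clone 6_2 for 15, against 50.3%. Against clone 6_1 the count was 11 of 22 with doxycycline and 15 in control medium. Against clone 6_2 it was 15 and 17.

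Of 33 motor adaptors and regulators 26 were measured, 14 lower with a median of -0.04, and 0 of 48 probes passed (limma). At an unadjusted p under 0.05, 2 were higher and 5 lower, beside 11.6% and 10.6% of all tested probes. Kifap3, the cargo subunit of the Kif3a and Kif3b motor, differed by -0.47 (SE 0.17), the mitochondrial adaptor Trak2 by -0.49 (SE 0.17) and the dynein adaptor Hook3 by -0.44 (SE 0.17). Of 36 tubulin and microtubule-associated genes 25 were measured, 14 lower with a median of -0.05, and 0 of 51 probes passed (limma). At an unadjusted p under 0.05, 8 were higher and 3 lower, beside the same shares of all tested probes. Tubulin genes read in both directions, with Tuba1a at -0.57 (SE 0.17) and Tubb2b at 0.57 (SE 0.17).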

How the data were processed

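Per the labels' protocols, total RNA was copied and labelled with biotin. The deposited table of the series holds a scanner intensity per probe on a linear scale, not background-subtracted, with a detection p-value beside each, per the file headers. The authors' processed intensity values were deposited too, with array medians of 134.1 to 134.2, with their normalisation not given in the sources used here. BeadStudio and GenomeStudio are listed in the submitters' processing notes. Scanner signals were normalised with neqc of limma 3.58.1 in R 4.3.3 (background from detection p, offset 16, quantile, log2). Probes with a detection p under 0.01 on at least 3 arrays were tested, 16902 in all, with lmFit and eBayes, medium as the effect and clone as a block (between clones, medium as covariate), two-sided, on 2 residual and 6.95 prior degrees of freedom, with a threshold of 0.05 after Benjamini-Hochberg adjustment over probes. The number of arrays limits the precision. The code was tested on simulated data.

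Pairing rests on the labels, which place each clone in both media. Deviations from the group means correlated at 0.538, -0.0211 and 0.139 between the arrays of clones 14, 6_1 and 6_2. The platform annotation named genes: it gave 34885 probes a single symbol, 18 more than 1 and 10378 no symbol. All 127 motor probes matched GRCm38.p6 by Entrez number, with 0 symbols changed. Members and lists were chosen with earlier results of these data known. Genes described in full were the 4 of smallest p per class, a set list (Kif11, Kif20a, Kif23, Kif1a, Kif3a, Kif5b, Klc1, Dync1h1, Dctn1 and Dynll1) and genes whose probes differed in sign and by over 0.5. Any motor probe called between media or clones would have been added. Kif5c, Kif9, Kif21a, Dctn2 and, between clones, Kif15, Dctn6, Dynlrb2 and a Kif1b probe fell outside this rule and were chosen after their values were seen. Alternatives covered pairing, normalisation, background, filter, array weights and leaving out each clone.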

Additional observations from a re-analysis of the deposited data

Results flagged for a closer look

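Kif12 was left out of the tests because its best probe was above background on 1 of 6 arrays. That array was the doxycycline array of clone 14, at 6.26 on the log2 scale, where the lowest value above background was 6.15, while 0 control arrays were above background. With 1 array per clone and medium, a difference between clones in the response to doxycycline was not tested. On the brightest probe of no motor gene did the difference exceed 0.5 upwards in one clone and 0.5 downwards in another. A dim Kif3c probe, above background on 3 of 6 arrays, did so, with 0.03, 0.62 and -0.52 in clones 14, 6_1 and 6_2. Groups of 3 arrays are too small to search for single arrays out of range.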

How the results depend on the processing

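The count of 0 motor probes called between media held without the replicate block (0 called, lowest adjusted p 0.168, so the block changed no call), with median scaling, cyclic loess, no background correction, an offset of 50, the authors' processed values and each filter. It was 6 with array weights, or 7.59%, where 2423 or 14.3% of all tested probes were called, and 0 to 3 when 1 clone was left out. The 6 were probes of Kif16b, Kif1c, Kif24, Kif2a, Kif3a and Kif9, all lower. These weights were equal within each clone and lowest for clone 6_1. The Kif2a probe was the dim one that entered the test through the control arrays alone, which fixes its direction. The Kif3a probe was the dimmer one, at -0.49, and the Kif1c probe was above background on 1 doxycycline and 2 control arrays. Between clones, median scaling gave 1 call for clone 14 minus 6_1, where 206 of all tested probes were called, and array weights gave 8 for 14 minus 6_2, where 2018 were. With 1 clone left out the class medians were -0.45 to -0.18 for mitotic kinesins, -0.15 to -0.051 for transport kinesins and -0.056 to 0.041 for dynein and dynactin. Over the alternatives that kept all clones they were -0.41 (median scaling) to -0.22 (array weights), -0.19 to -0.029 and -0.088 to -0.0021, with the same alternatives at the ends. With the other kinesins added, the transport median was -0.22. Median scaling moved the median of all tested genes to -0.06.

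Of 595 values for the 46 genes 23 changed sign, in 14 genes, and the cause was not tested. With median scaling Kif18b was at -0.039 and Dync1li2 at -0.017. Dync2li1 was at 0.0035 with cyclic loess and 0.00079 with the authors' values. With array weights Kif18b was at -0.10, Kif3a at -0.029, Kif5a at 0.025 and Dynlt3 at 0.012. With 1 clone left out, the lowest and highest differences were -0.11 and 0.10 for Kif18b, -0.039 and 0.12 for Kif3a, -0.10 and 0.22 for Kif22, -0.0075 and 0.32 for Kif13b, -0.051 and 0.37 for Kif17, and -0.60 and 0.10 for Kif1c. They were -0.37 and 0.017 for Kif3c, -0.15 and 0.053 for Kif5a, -0.19 and 0.28 for Kif5c, -0.28 and 0.15 for Klc4, -0.36 and 0.015 for Dctn4, -0.19 and 0.13 for Dync2li1, and -0.23 and 0.067 for Dynlt3. Without clone 6_2 Kif22 was at -0.0058, and without clone 14 Dync2li1 was at 0.048. A slide as a block was not run, since the files name no slides. Of the 79 tested motor probes 6 were not above background on every array.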
